A study of Rattus norvegicus with 56 samples.

Results

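The miR-379 to miR-410 cluster is a run of microRNA genes in the imprinted Dlk1-Dio3 domain of the rat. Its members were taken as every listed microRNA whose number, whatever its letter or arm, is one of 32 numbers of that run (miR-379, miR-411, miR-299, miR-380, miR-323, miR-758, miR-329, miR-494, miR-679, miR-666, miR-543, miR-495, miR-667, miR-376, miR-654, miR-300, miR-381, miR-487, miR-539, miR-544, miR-382, miR-134, miR-668, miR-485, miR-154, miR-496, miR-377, miR-541, miR-409, miR-412, miR-369 and miR-410), with no use of measured values. This gave 64 mature microRNAs from 30 of the numbers among 682 microRNAs listed in any tissue, and miR-679 and miR-654 had no listed member. The myocardium tables held 63 members of 661 microRNAs, the amniotic fluid tables together 58 of 523 and 44 of 518 were listed in maternal serum.

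The question of the study was which microRNAs differ with a ventricular septal defect (VSD) in fetal myocardium, amniotic fluid and maternal serum of Sprague-Dawley rats. Pregnant rats were gavaged with dimethadione (DMO), 5 ml/kg of a 60 mg/ml solution every 12 h for 6 doses from gestational day 8, or with distilled water (NC), and sampled on day 19. The VSD group was DMO-exposed fetuses with a septal defect and no great vessel malformation, and the non-VSD group was DMO-exposed fetuses with an intact septum. Myocardium and amniotic fluid supernatant had 7 samples each of NC, non-VSD and VSD, and maternal serum 7 of NC and 7 of dams in the VSD arm. The litter of each fetus was not given, so the 7 samples of a group may share dams and the p-values below measure the spread between samples only.

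MicroRNAs are cut from a hairpin precursor and can leave a mature strand from its 5p arm, its 3p arm or both. The strand guides silencing proteins to messenger RNAs that pair with its seed. In the Dlk1-Dio3 domain the noncoding RNAs and microRNAs are transcribed from the maternal chromosome, while Dlk1, Rtl1 and Dio3 are expressed mainly from the paternal one. The cluster is best known in brain, placenta and embryonic tissues, and falls after birth in most organs. In RefSeq's assembly GRCr8 the members lay at chr6:134543460-134579828, a span of 36.4 kb downstream of Dlk1, Meg3 and Rtl1 and upstream of Dio3. The genes that overlapped this span in RefSeq were 41 microRNA and 2 long noncoding RNA genes, with 0 protein-coding genes. On the plus strand lay 61 members. The other 3, miR-299b-5p, miR-299b-3p and miR-409b, lay on the minus strand, antisense to miR-299a and miR-409a. The build used for the deposited counts is not given in the sources used here.

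All 64 members matched a RefSeq mature sequence, between 17 and 25 nt long. The members that dominated a tissue are shown first, with the seed (bases 2 to 8) in capitals.
miR-379-5p: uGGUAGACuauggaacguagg
miR-411-5p: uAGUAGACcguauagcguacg
miR-382-5p: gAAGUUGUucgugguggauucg
miR-541-5p: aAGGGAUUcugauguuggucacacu
miR-134-5p: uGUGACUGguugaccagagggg
miR-409a-3p: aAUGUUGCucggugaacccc
Members that met the study's threshold in at least 1 comparison within myocardium or amniotic fluid follow, though their groups overlapped.
miR-369-3p: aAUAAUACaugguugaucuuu
miR-299a-5p: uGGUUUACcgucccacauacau
miR-300-3p: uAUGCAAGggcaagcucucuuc
miR-376a-3p: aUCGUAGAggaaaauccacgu
miR-376b-3p: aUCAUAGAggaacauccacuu
miR-494-3p: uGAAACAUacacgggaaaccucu
miR-329-5p: aGAGGUUUucugggucucuguuuc
miR-539-3p: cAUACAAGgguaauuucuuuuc
Lastly, members whose reads could be confused with those of another member are shown.
miR-409b: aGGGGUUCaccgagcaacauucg
miR-409a-5p: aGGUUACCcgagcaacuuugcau
miR-299b-5p: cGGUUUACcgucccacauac
miR-381-3p: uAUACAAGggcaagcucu
The 64 members held 58 different seeds, and 49 members had a seed that no other of the 693 RefSeq mature rat microRNAs had. Transcripts of 1 locus therefore carried many different target specificities. Shared seeds joined miR-381-3p with miR-539-3p, miR-376b-5p with miR-376c-5p, miR-299a with miR-299b on both arms, and miR-410-5p with miR-494-5p and miR-496-5p. The sequences of miR-300-3p and miR-381-3p were identical at 17 of 18 positions, those of miR-376a-3p and miR-376b-3p at 18 of 21 and those of miR-299a-5p and miR-299b-5p at 19 of 20. The reverse complement of miR-409b matched miR-409a-3p at 20 of 20 positions, and miR-409b as listed matched miR-409a-5p at 15 of 21. How the counting divided reads among such pairs is not given in the sources used here, so the values of these members are uncertain.

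Depth differed between tissues. Libraries held 1694811 to 9371130 counts in myocardium, 78188 to 331787 in amniotic fluid and 147609 to 581350 in maternal serum. A floor of 3 counts in a library corresponded to at most 1.77 CPM (counts scaled to a library total of 1000000) in myocardium, 38.4 CPM in amniotic fluid and 20.3 CPM in serum, so low members in the fluids rested on single counts. Floors cover counting error only. The 12 heart and skeletal muscle markers listed in myocardium, such as miR-1, miR-133 and miR-208, summed to a median of 31613 CPM in NC. The median was 189 CPM in NC amniotic fluid (9 listed) and 8769 CPM in NC serum (8 listed). Within myocardium 3 libraries stood apart: the muscle markers summed to 5057 CPM in NC replicate 2, 7586 in VSD replicate 1 and 9484 in VSD replicate 4, and to between 21978 and 62556 in the other 18 libraries. Comparisons between the groups of myocardium are given with and without these 3.

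The cluster held about 8% of all microRNA counts in NC amniotic fluid, 1.2% in NC myocardium and 0.439% in NC maternal serum. In NC myocardium the share was 0.343% at lowest, 0.977% at the median and 2.92% at highest (mean 1.21% ± 0.907, SD, n = 7). In NC amniotic fluid it was 5.55%, 7.19% and 11.2% (mean 8.18% ± 2.33, SD, n = 7), and in NC serum 0.154%, 0.414% and 0.759% (mean 0.439% ± 0.244, SD, n = 7). The ranges of the 3 tissues overlapped only between myocardium and serum. The kits and sequencers of amniotic fluid differed from those of the other tissues, so tissue and library method cannot be told apart there.

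Within tissues the share overlapped between groups throughout. In myocardium it was 0.328% to 1.35% in non-VSD (mean 0.985% ± 0.395, SD, n = 7) and 0.7999% to 1.92% in VSD (mean 1.44% ± 0.401, SD, n = 7). The highest value of all was NC replicate 2, the library with the lowest muscle and the second highest epithelial markers, and without it the NC mean was 0.920% ± 0.548 (SD, n = 6). In amniotic fluid the share was 6.14% to 18.8% in non-VSD and 3.47% to 9.22% in VSD, and in maternal serum it was 0.407% to 1.95% in VSD. The single highest libraries were non-VSD replicate 6 in amniotic fluid and VSD replicate 2 in serum.

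**Figure D1:**
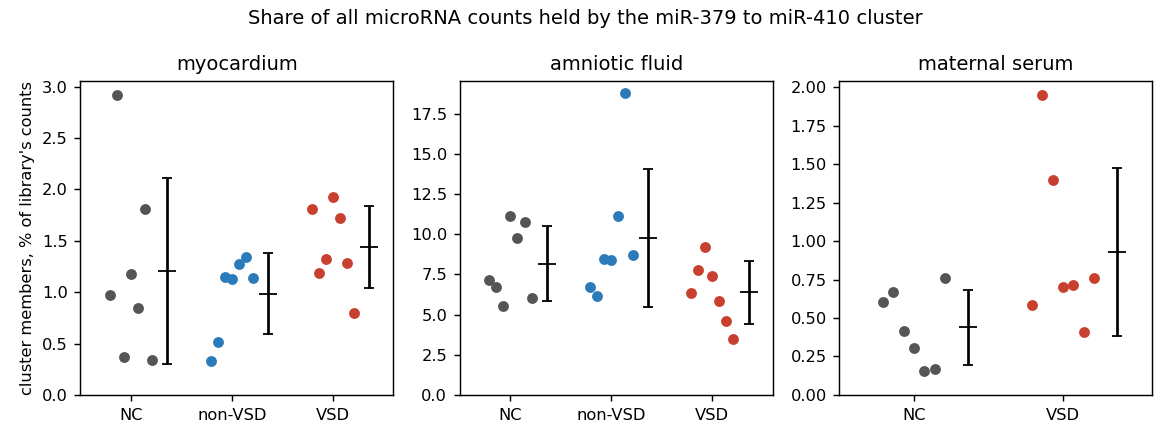
Share of each library's microRNA counts held by the cluster members (y axis, percent; each panel has its own scale from 0), by tissue and group; points are the 7 samples of a group, bars are mean ± SD. Amniotic fluid NC lies between 5.55% and 11.2%, above every myocardium and serum library, and NC replicate 2 (2.92%) is the highest myocardium library.

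Each tissue had its own leading members. One read covers a mature microRNA from end to end, so CPM is compared between members without a length correction. How evenly library preparation captured different sequences was not measured, so orders and shares of members are those of counts. In NC myocardium miR-379-5p, the first gene of the run, was highest at 5302 CPM ± 2640 (SD, n = 7) and made up 42.5% of the cluster. It was followed by miR-541-5p at 1432 CPM ± 784, miR-411-5p at 1202 CPM ± 693, miR-134-5p at 746 CPM ± 433.7 and miR-409a-3p at 623 CPM ± 376.96. The step from miR-379-5p to the next member exceeded the SD of both, and each later neighbour in this order lay within 1 SD of the member above it. These 5 members made up 74.6% of the cluster, and miR-379-5p ranked 35 among the 661 microRNAs listed.

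In NC amniotic fluid miR-382-5p led at 29022 CPM ± 12599 (SD, n = 7), 35.6% of the cluster and rank 8 among 523 microRNAs. miR-541-5p followed at 18239 CPM ± 6925, then the antisense miR-409b at 7955 CPM ± 2147, miR-134-5p at 6724 CPM ± 2002 and miR-379-5p at 3870 CPM ± 1188. In NC maternal serum miR-134-5p (1322 CPM ± 849), miR-409a-3p (1174 CPM ± 717) and miR-382-5p (1161 CPM ± 650) were within 1 SD of each other and made up 81.1% of the cluster, ahead of miR-485-3p at 210 CPM ± 120 and miR-541-5p at 185 CPM ± 89.8. The leading member of myocardium was nearly missing from serum, where miR-379-5p stood at 19.1 CPM ± 13.2 and its neighbour miR-411-5p at 7.0 CPM ± 5.32. The order of NC levels was alike to a degree (Spearman's rho over members listed in both tissues 0.674 for myocardium and amniotic fluid, 57 members; 0.724 for amniotic fluid and serum, 43 members; 0.551 for myocardium and serum, 44 members), a description over members of 1 locus.

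Level did not follow position in any simple order. Over the hairpins with a listed member, Spearman's rho between distance from miR-379-5p and NC level was -0.0722 in myocardium (33 hairpins), 0.127 in amniotic fluid (34) and 0.281 in serum (28). Myocardium had its highest level at the start of the run (miR-379), with miR-411 beside it and miR-541 near the far end next in order. Amniotic fluid and serum had theirs toward its far end, at miR-382 and miR-134 and again at miR-541 and miR-409. The lowest hairpin in myocardium was miR-544, whose 3p arm had 12 counts over the 7 NC libraries, and 52 of 63 members had a count in all 7. In amniotic fluid 21 of 58 and in serum 17 of 44 did, and miR-134-3p, miR-376a-5p and miR-544-3p had 0 counts in all 7 NC amniotic fluid libraries.

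**Figure D2:**
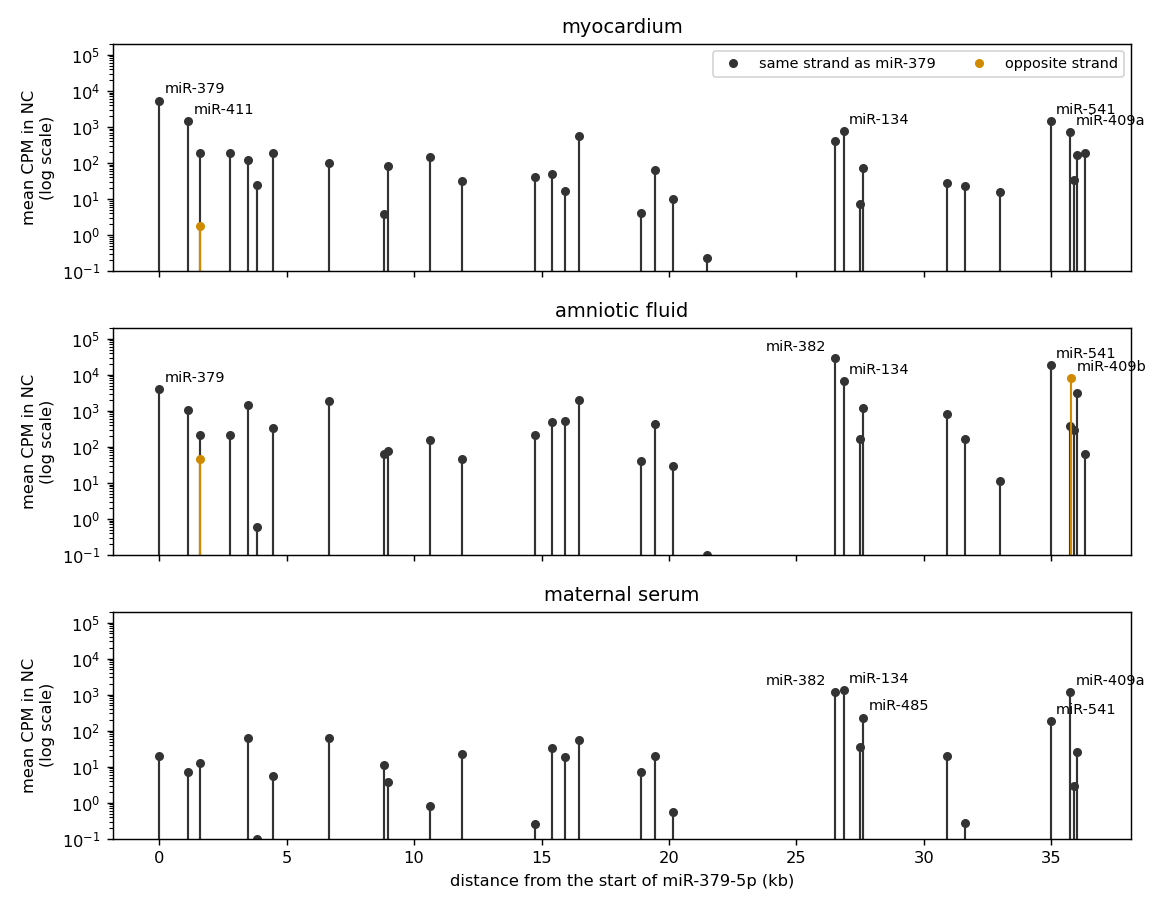
Mean CPM over the 7 NC samples (y axis, log scale; both arms of a hairpin summed, values below 0.1 drawn at 0.1) against distance from the start of miR-379-5p (x axis, kb), for 3 tissues; colour marks the strand and the 5 highest hairpins are named. miR-379 leads in myocardium (miR-379-5p, 5302 CPM), miR-382 in amniotic fluid (miR-382-5p, 29022 CPM) and miR-134 in serum (miR-134-5p, 1322 CPM).

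NC myocardium and NC maternal serum, prepared with the same library kit, were compared in 1 fit of edgeR's quasi-likelihood test. Their RNA was extracted with different kits, from wax blocks and from serum. Tissue and extraction therefore cannot be told apart in the differences below. Of all microRNAs tested 73.3% passed an adjusted p under 0.05 with a difference of 2-fold or more, and 26 of the 33 cluster members tested did, 20 higher in myocardium and 6 higher in serum. Members could enter this fit through myocardium alone, whose libraries were deeper, so the counts are a description. Among the 20 were miR-379-5p and miR-411-5p, whose serum levels given above rested on 1 to 22 and 0 to 8 counts in a library, so no fold change is given for them. Higher in serum were miR-485-3p (log2 fold change of myocardium over serum -2.64 ± 0.563, SE, adjusted p = 0.000380), miR-668 (-2.52 ± 0.517, adjusted p = 0.000266), miR-382-5p (-2.46 ± 0.422, adjusted p = 4.28e-05), miR-409a-3p (-1.24 ± 0.488, adjusted p = 0.0285) and miR-134-5p (-1.17 ± 0.453, adjusted p = 0.0256). Also among these 6 was miR-376a-3p, on 2 to 21 counts in an NC serum library, so its fold change is not given either. miR-758-3p had 0 counts in all 7 NC serum libraries and 23.7 CPM on average in NC myocardium. Without single NC myocardium libraries the filter left 19 to 24 members and 12 to 19 called, since the median depth that sets the filter then moved to the shallow serum libraries.

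Arm use differed between tissues for some hairpins. Where both arms were listed and NC libraries held at least 50 counts in myocardium and in amniotic fluid, the same arm was the major one at 16 of 21 hairpins. The other 5 were miR-299a, miR-329, miR-369, miR-376a and miR-666. For miR-376a the 3p arm held 41.3% of the counts of both arms in NC myocardium (340 of 3p, 483 of 5p) and 100% in NC amniotic fluid (551 of 3p, 0 of 5p). For miR-666 it held 6.70% and 81.4%, on small counts in both. For miR-299a it held 90.9% and 47.7%, and for miR-369, near even in both, 47.4% and 52.6%. In serum the major arm was that of myocardium at 11 of 11 hairpins with at least 50 counts in both. Tissue and library method cannot be told apart in the amniotic fluid values, and these shares are a description.

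**Figure D3:**
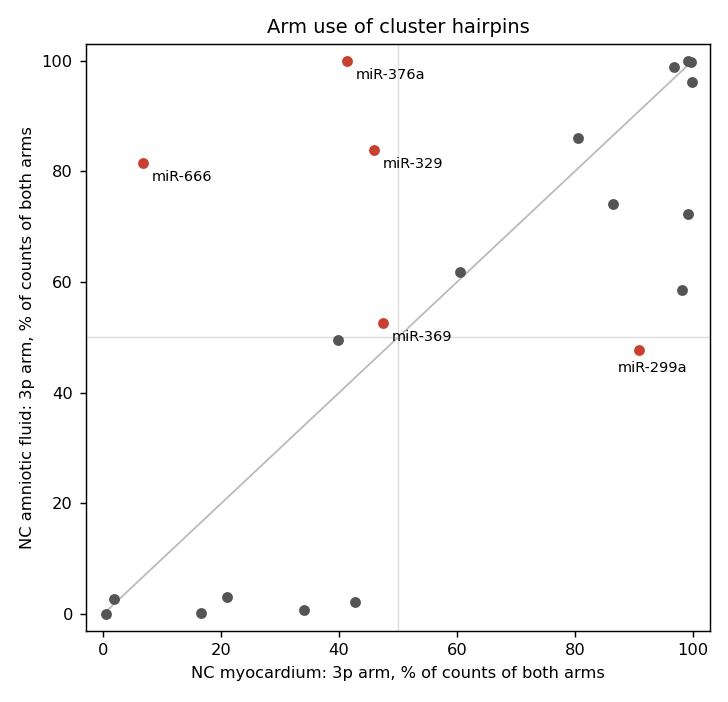
Share of the 3p arm among the counts of both arms (percent) in NC myocardium (x axis) and NC amniotic fluid (y axis) for the 21 hairpins with at least 50 counts in each; points in red change their major arm, and the grey diagonal marks equal shares. miR-376a (41.3% and 100%) and miR-666 (6.70% and 81.4%) lie far above the diagonal and miR-299a (90.9% and 47.7%) below it.

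RefSeq lists a mature microRNA from each strand of the miR-409 locus, and the tissues differed in which strand was listed. miR-409b, from the minus strand, was listed only in amniotic fluid, with 397 to 2315 counts in each NC library. There miR-409a-3p had 15 to 101 counts and miR-409a-5p 0 to 35. In NC myocardium miR-409a-3p had 569 to 13524 counts and miR-409b was not listed. The amniotic fluid libraries came from another kit and sequencer, and how reads were assigned to a strand in each tissue's counts is not given. The part of library method and of counting in the difference was not tested.

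Members moved together from sample to sample, most closely in NC myocardium. Among the 52 members with a mean count of at least 10 in myocardium, the median Spearman's rho of member pairs over the 7 samples was 0.857 in NC, 0.571 in non-VSD and 0.429 in VSD, against 0.0357, 0 and 0 over pairs of all 475 microRNAs at that level. In amniotic fluid (32 members) it was 0.464, 0.247 and 0.206, and in serum (10 members) 0.643 in both groups. In NC myocardium every member pair had a positive rho. Samples of NC myocardium that were high for 1 member were thus high for most, and a change in a single library there moved many members at once. This was weaker in amniotic fluid, where 79.6% of member pairs were positive in NC, 71.6% in non-VSD and 64.3% in VSD. The summed epithelial markers (13 listed, such as miR-200 and miR-205) ranged from 175 to 18114 CPM in NC, 311 to 7536 in non-VSD and 1999 to 21752 in VSD myocardium, and the neural markers (6 listed, miR-9a, miR-124 and miR-137) from 232 to 1338, 118 to 933 and 509 to 1506 CPM. NC replicate 2 was highest of NC in the cluster, the epithelial and the neural markers. The part of other cell types in the cluster's level was not tested, and in these bulk samples fewer cells and less RNA per cell cannot be told apart.

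For VSD against NC myocardium, 1 of 52 tested members met the study's threshold for a DE-microRNA (an unadjusted p under 0.05, and at least 2 times or at most 0.5 times the level of the reference group) while 6.82% of all 469 microRNAs tested did. It was miR-376a-3p, at 1.43 to 16.0 CPM in NC (median 4.38) and 10.3 to 20.6 CPM in VSD (median 11.9). Each of the 7 VSD values exceeded the median of NC, and 3 exceeded all of NC. The log2 fold change was 1.12 ± 0.434 (SE, adjusted p = 0.164). An adjusted p under 0.05 was reached by 0 members (0.426% of all microRNAs; edgeR), by 0 in DESeq2 and by 1 in limma, which was miR-376a-3p with an adjusted p of 0.0421. At an unadjusted p under 0.05 stood 1 member in edgeR, 3 in DESeq2 and 16 in limma, beside 19.2% of all microRNAs in edgeR. The members' median log2 fold change was 0.15 and that of all microRNAs -0.05. These values depended on the tool. With limma on log2(CPM + 1), 13 of 52 members met the DE-microRNA threshold, beside 14.3% of all microRNAs, and the medians were 0.69 for members and 0.40 for all microRNAs. With library-size scaling in edgeR it was 3 members beside 9.59% of all, with medians of 0.41 and 0.32, and with DESeq2 3 members beside 8.10%. The call of miR-376a-3p was lost without NC replicate 3 (0.91), NC replicate 4 (0.89), NC replicate 7 (0.95) or VSD replicate 3 (0.99), and without NC replicate 2, 8 members were called, while 2 were without NC replicate 6 or VSD replicate 7. Without the 3 libraries low in muscle markers 3 members were called and miR-376a-3p stood at 1.54. Blood markers had their highest medians in NC. The red blood cell list summed to 3267 to 73089 CPM in NC (median 29068), 3051 to 34887 in non-VSD (median 7705) and 4767 to 24232 in VSD (median 8906), and the white blood cell list had medians of 1266, 596 and 709 CPM. The ranges overlapped, and their part in the comparisons with NC was not tested.

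Of miR-494-3p, miR-299a-5p and miR-134-3p, which the study's results or its PCR assays name and which are followed in every comparison, 0 met the threshold here. miR-494-3p was at 27.4 to 275 CPM in NC (median 67.4) and 69.2 to 264 CPM in VSD (median 136.3), with a log2 fold change of 0.53 ± 0.465 (SE, adjusted p = 0.526). All 7 VSD samples exceeded the NC median, and the highest sample was NC replicate 2. Without that library it was 1.01. miR-299a-5p (-0.09 ± 0.378) and miR-134-3p (-0.17 ± 0.395), the latter under 7 CPM in every sample, had changes smaller than their SE, and both turned positive without NC replicate 2 (0.21 and 0.13). The lowest p among lower members belonged to miR-381-3p, at 0.924 to 6.59 CPM in NC and 1.26 to 3.64 in VSD (-0.68 ± 0.404, adjusted p = 0.331).

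For non-VSD against NC myocardium, 0 of 50 tested members met the DE-microRNA threshold, beside 4.17% of all 456 microRNAs. The same number, 0, passed an adjusted p under 0.05 in edgeR, DESeq2 and limma (0.219% of all in edgeR), and at an unadjusted p under 0.05 stood 0 members in edgeR (17.5% of all microRNAs), 1 in DESeq2 and 0 in limma. In edgeR most members were on the lower side: 38 of 50 had a negative log2 fold change and 12 a positive one, beside 43.4% of all microRNAs positive. The median was -0.31, and that of all microRNAs was -0.07. These medians depended on the fit: with limma they were 0.09 and 0.23, and with the replicate block -0.14 and 0.004. Among the lower members miR-379-5p had the lowest p, at 2025 to 9814 CPM in NC (median 4802) and 1054 to 5018 CPM in non-VSD (median 3081), with a log2 fold change of -0.75 ± 0.372 (SE, adjusted p = 0.308). Of the non-VSD samples 6 of 7 lay below the NC median and 2 below every NC sample. On the higher side it was miR-369-5p (0.60 ± 0.339, adjusted p = 0.407), at 43.1 to 156 CPM in NC and 54.4 to 218 in non-VSD. miR-299a-5p (-0.60 ± 0.396), miR-494-3p (-0.46 ± 0.456, and 0.03 without NC replicate 2) and miR-134-3p (-0.35 ± 0.441) did not pass. Without NC replicate 2, 1 member was called and the median was -0.05. Without NC replicate 3 or NC replicate 7, 2 members were called, and without non-VSD replicate 3 it was 1.

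For VSD against non-VSD myocardium, the comparison within DMO-exposed fetuses, 51 of 54 tested members had a positive log2 fold change, beside 51.3% of all 483 microRNAs, and the median was 0.44 beside 0.02. The DE-microRNA threshold was met by 3 members, all higher in VSD, and by 5.18% of all microRNAs. No microRNA passed an adjusted p under 0.05 in edgeR (0%), and of the members 0 did in edgeR, DESeq2 or limma. At an unadjusted p under 0.05 stood 7 members, all higher in VSD, in edgeR (11.6% of all microRNAs), 8 in DESeq2 and 5 in limma. miR-329-5p was at 58.1 to 137.1 CPM in non-VSD (median 67.1) and 62.9 to 378 CPM in VSD (median 175), and 4 VSD samples lay above every non-VSD sample (log2 fold change 1.13 ± 0.379, SE, adjusted p = 0.426). miR-494-3p was at 48.5 to 124.3 CPM in non-VSD (median 65.4) and 69.2 to 264 CPM in VSD (median 136.3), and 5 VSD samples lay above every non-VSD sample (1.03 ± 0.411, adjusted p = 0.426). miR-539-3p, which shares its seed with miR-381-3p, was at 3.19 to 17.4 CPM in non-VSD (median 6.50) and 11.95 to 26.6 CPM in VSD (median 14.9), with 3 VSD samples above every non-VSD sample (1.07 ± 0.513, adjusted p = 0.426). The groups overlapped for each of the 3.

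These calls rested on few libraries. Without VSD replicate 3, 0 members were called, with miR-329-5p at 0.76. Without non-VSD replicate 1 or non-VSD replicate 6 it was 1, without VSD replicate 6 or non-VSD replicate 3 it was 5 and without VSD replicate 7 it was 6. miR-494-3p fell short without VSD replicate 1 (0.87), VSD replicate 3 (0.92), non-VSD replicate 1 (0.97) or non-VSD replicate 6 (0.93), and miR-539-3p missed the p threshold without any of NC replicate 6, VSD replicates 1, 3, 4 and 5 and non-VSD replicates 1, 2, 5, 6 and 7 (log2 fold changes of 0.93 to 1.12). Without the 3 libraries low in muscle markers 2 members were called, miR-494-3p stood at 0.78, miR-539-3p at 0.99 and miR-329-5p at 1.06, and the members' median was 0.29. miR-299a-5p was at 6.86 to 14.6 CPM in non-VSD and 9.84 to 19.3 in VSD, with 5 VSD samples above every non-VSD sample (0.54 ± 0.344, adjusted p = 0.475). miR-134-3p (0.20 ± 0.395) and miR-410-5p, the member with the lowest p on the lower side (-0.65 ± 0.622), had changes close to or below their SE. The summed epithelial and neural markers were higher in VSD than in non-VSD at the median, 3509 beside 1917 CPM and 913 beside 555 CPM, with overlapping ranges, and their part was not tested.

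For VSD against NC amniotic fluid, 4 of 29 tested members met the DE-microRNA threshold, all lower in VSD, beside 6.94% of all 245 microRNAs. They were miR-369-3p, miR-300-3p, miR-376b-3p and miR-299a-5p. miR-369-3p was at 1054 to 2493 CPM in NC (median 1809) and 357 to 1364 CPM in VSD (median 630), and 6 of 7 VSD samples lay below every NC sample (log2 fold change -1.21 ± 0.318, SE, adjusted p = 0.174). miR-300-3p was at 398 to 4328 CPM in NC (median 1740) and 324 to 1418 CPM in VSD (median 659), with 7 of 7 VSD samples below the NC median and 1 below every NC sample (-1.41 ± 0.479, adjusted p = 0.230). miR-376b-3p was at 11.1 to 843 CPM in NC (median 348) and 0 to 210 CPM in VSD (median 123), with 7 of 7 VSD samples below the NC median (-1.99 ± 0.796, adjusted p = 0.251). It fell short without NC replicate 4 (-1.71) or NC replicate 6 (-1.74), where p passed 0.05. miR-299a-5p had 6 to 40 counts in each NC library, 43.0 to 170 CPM, and 0 counts in 5 VSD libraries, 2 in VSD replicate 5 and 20 in VSD replicate 1 (-2.50 ± 1.03, adjusted p = 0.251). A count of 0 in these VSD libraries allows up to 12.3 to 36.9 CPM, so the lowest NC libraries were close to what the depth can show. It passed the filter mainly through NC, the group where it was higher, so its place among the 4 leaned on that group. Without NC replicate 3, NC replicate 5 or VSD replicate 1 its counts no longer passed the filter and it was not tested.

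An adjusted p under 0.05 was reached by 0 members in edgeR, DESeq2 and limma and by 0% of all microRNAs in edgeR. At an unadjusted p under 0.05 stood 6 members in edgeR, all lower in VSD (13.5% of all microRNAs), 5 in DESeq2 and 4 in limma. miR-382-5p, the leading member of the fluid, was at 15905 to 46706 CPM in NC and 13265 to 22373 CPM in VSD (-0.76 ± 0.290, adjusted p = 0.239) and miR-154-5p was the sixth (-0.83 ± 0.385). The members' median log2 fold change was -0.31, with 22 of 29 negative and 7 positive. That of all microRNAs was -0.06, with 48.2% positive. Not all abundant members were lower: miR-541-5p was at 12110 to 32398 CPM in NC and 10405 to 34756 in VSD, and miR-134-5p at 3506 to 8872 and 2115 to 13944. The lowest p on the higher side was that of miR-412-5p (0.67 ± 0.525, adjusted p = 0.628), and miR-494-3p stood at -0.31 ± 0.364. miR-134-3p was counted in 1 VSD library only (26 counts) and was not tested.

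The arms of miR-369 parted in the VSD fluid. The 5p arm was at 648 to 2585 CPM in NC (median 1287) and 614 to 2276 CPM in VSD (median 1080), ranges that nearly coincide, while the 3p arm was lower as given above. The 3p share of the counts of both arms was 42.9% to 69.9% in NC (median 58.1%), 42.4% to 89.0% in non-VSD (median 52.4%) and 31.6% to 44.1% in VSD (median 36.8%). Only VSD replicate 5 reached into the NC range. In myocardium the VSD share was 30.9% to 52.6% and lay inside the NC range of 25.7% to 53.6% throughout. These shares were looked at after the values were seen and are a description.

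For non-VSD against NC amniotic fluid, 0 of 27 tested members met the DE-microRNA threshold, although 12.4% of all 242 microRNAs did. An adjusted p under 0.05 was reached by 4.96% of all microRNAs and by 0 members in edgeR and limma and 1 in DESeq2 (miR-134-5p, adjusted p = 0.0383). At an unadjusted p under 0.05 stood 2 members in each of the 3 tools, beside 19.4% of all microRNAs in edgeR. miR-411-5p was at 719 to 1405 CPM in NC (median 973) and 365 to 761 CPM in non-VSD (median 532), and 5 of 7 non-VSD samples lay below every NC sample (log2 fold change -0.90 ± 0.310, SE, adjusted p = 0.0944). It passed the fold threshold without NC replicate 1 or NC replicate 2 (-1.03 for the latter). miR-134-5p was at 3506 to 8872 CPM in NC (median 7371) and 6576 to 22160 CPM in non-VSD (median 8942), with 4 samples above every NC sample (0.85 ± 0.306, adjusted p = 0.110). The members' median was 0.11, the same as that of all microRNAs (0.11), and its sign depended on the fit: it was -0.65 with limma (all microRNAs -0.17) and -0.33 with all groups in 1 fit (0.02). In edgeR it was -0.58 without non-VSD replicate 6, the library with the largest cluster share, and 2 members were then called. Without NC replicate 1 or NC replicate 2 it was also 2, and without NC replicate 7 it was 1. miR-299a-5p (-0.76 ± 0.957) and miR-494-3p (-0.35 ± 0.517) did not pass.

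For VSD against non-VSD amniotic fluid, 1 of 33 tested members met the DE-microRNA threshold, beside 3.3% of all 273 microRNAs. It was again miR-369-3p, at 860 to 4298 CPM in non-VSD (median 1415) and 357 to 1364 CPM in VSD (median 630). All 7 VSD samples lay below the non-VSD median and 5 below every non-VSD sample. The log2 fold change was -1.54 ± 0.377 (SE, adjusted p = 0.0572 in edgeR and 0.00635 in DESeq2), and it lay between -1.69 and -1.16 when any 1 library was left out. Both comparisons use the same 7 VSD samples. An adjusted p under 0.05 was reached by 0 members in edgeR (0% of all microRNAs), 1 in DESeq2 and 0 in limma. At an unadjusted p under 0.05 stood 4 members in edgeR (10.6% of all microRNAs), 4 in DESeq2 and 6 in limma. Besides miR-369-3p these were miR-382-5p (-0.96 ± 0.330), miR-409b (-0.79 ± 0.317) and, higher in VSD, miR-411-5p at 365 to 761 CPM in non-VSD and 491 to 1504 CPM in VSD (0.82 ± 0.309, adjusted p = 0.239). miR-299a-5p was at 0 to 170 CPM in non-VSD (-1.73 ± 1.198, adjusted p = 0.744) and stood at -4.32 without VSD replicate 1. miR-494-3p stood at 0.09 ± 0.476. The members' median was -0.49 and that of all microRNAs -0.04. With limma these medians were -0.10 and -0.05. In edgeR the members' median was -0.07 without non-VSD replicate 6. Without 1 of 9 libraries (NC replicate 2, VSD replicates 1, 2 and 3 and non-VSD replicates 1, 2, 3, 4 and 7) 2 or 3 members were called.

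Blood, epithelial, neural and liver markers varied widely among the amniotic fluid libraries. The red blood cell list (miR-144, miR-451 and miR-486) summed to 15338 to 36170 CPM in NC, 26360 to 85934 in non-VSD and 18210 to 129541 in VSD, and the epithelial list (12 listed) to 87707 to 147911, 53441 to 122581 and 51761 to 155666 CPM. The white blood cell list had medians of 2910 CPM in NC, 9476 in non-VSD and 3236 in VSD, with overlapping ranges. The heart and skeletal muscle list (9 listed) stayed at or under 5279 CPM in every library. The miR-290 to miR-295 list of early embryo and trophoblast summed to 349 to 1170 CPM in NC, 871 to 2890 in non-VSD and 754 to 2666 in VSD. The neural list summed to 5763 CPM in non-VSD replicate 2, 1855 in non-VSD replicate 3 and at most 644 in every other library. These libraries were also the highest of non-VSD for miR-369-3p, at 4298 and 2702 CPM. Next was non-VSD replicate 4 at 2223 CPM, with 301 CPM of neural markers. The 1 listed liver marker stood at 33502 CPM in VSD replicate 4, 9299 in VSD replicate 3 and at most 3122 elsewhere. The part of these cell types in the differences above was not tested.

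**Figure D4:**
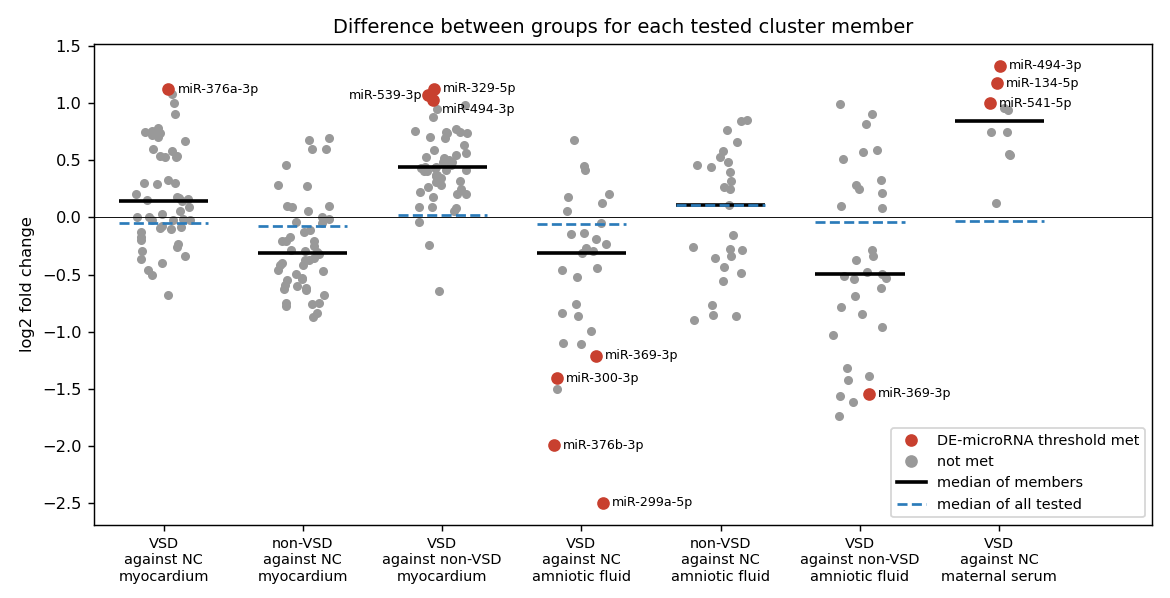
Log2 fold change (y axis) of each cluster member tested in the 7 group comparisons (x axis); red points met the DE-microRNA threshold, the black bar is the median of the members and the dashed blue bar that of all microRNAs tested. Members sit above 0 in VSD against non-VSD myocardium (median 0.44) and in serum (0.84), and their called members lie below 0 in amniotic fluid (miR-299a-5p, -2.50).

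For VSD against NC maternal serum, all 10 tested members had a positive log2 fold change, beside 47.5% of all 219 microRNAs, and their median was 0.84 beside -0.03. Every dam of the VSD arm was given DMO and every NC dam water, and serum had no non-VSD group. DMO exposure of the dam and a septal defect of the fetus therefore cannot be told apart in serum. The DE-microRNA threshold was met by 3 members, miR-541-5p, miR-494-3p and miR-134-5p, and by 4.57% of all microRNAs. miR-134-5p, which led in serum, was at 374 to 2473 CPM in NC (median 1185) and 1288 to 5803 CPM in VSD (median 2831), and 7 of 7 VSD values exceeded the median of NC, 4 of them all of NC (log2 fold change 1.17 ± 0.415, SE, adjusted p = 0.183). miR-541-5p was at 69.7 to 304 CPM in NC (median 196) and 233 to 618 CPM in VSD (median 265), with 7 of 7 above the NC median and 3 above every NC sample (1.001 ± 0.334, adjusted p = 0.176). miR-494-3p was at 30.2 to 132.7 CPM in NC (median 58.4) and 33.9 to 364 CPM in VSD (median 100), on 6 to 87 counts in VSD libraries, with 5 above the NC median and 3 above every NC sample (1.33 ± 0.454, adjusted p = 0.176). The groups overlapped for each.

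The members next in level were of similar size. miR-382-5p was at 408 to 1999 CPM in NC and 1343 to 3766 CPM in VSD (0.94 ± 0.339, adjusted p = 0.197) and miR-409a-3p at 348 to 2279 and 1301 to 4199 CPM (0.96 ± 0.374, adjusted p = 0.244). With miR-300-3p (0.75 ± 0.339), 6 members stood at an unadjusted p under 0.05 in edgeR (13.7% of all microRNAs), and 6 did in DESeq2 and in limma. An adjusted p under 0.05 was reached by 0 members in all 3 tools and by 0% of all microRNAs in edgeR. The members of low level that were high in myocardium stayed low in both serum groups: miR-379-5p was at 1.89 to 38.4 CPM in NC and 6.39 to 69.7 CPM in VSD. miR-299a-5p had 3 counts over the 7 NC and 2 over the 7 VSD libraries and was not tested.

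The counts of called members in serum depended on single libraries and on the tool. They were 6 with limma, beside 5.94% of all microRNAs, 5 with library-size scaling (6.39%) and 2 with DESeq2 (4.11%). Leaving out 1 library in turn, the median lay between 0.70 and 0.98. Without VSD replicate 2, which held the largest cluster share, 0 members were called (miR-134-5p 0.91, miR-494-3p 0.98 and miR-541-5p 0.83), though each stayed at an unadjusted p under 0.05. Without NC replicate 4, 1 member was called (miR-134-5p 0.995 and miR-541-5p 0.82), and without NC replicate 1, NC replicate 7, VSD replicate 4 or VSD replicate 6 it was 5. miR-541-5p, on the edge of the fold threshold, also dropped under it without NC replicate 2, 3, 5 or 6 or VSD replicate 3 or 5 (0.83 to 0.95). The miR-290 to miR-295 list summed to 1720 CPM in VSD replicate 2, 717 in VSD replicate 3 and 677 in VSD replicate 4, to between 45.8 and 197 CPM in the other 4 VSD libraries and to between 70.0 and 143 CPM in NC. Without those 3 libraries 0 members were called and the median was 0.54. The white blood cell list summed to 38113 to 68461 CPM in NC (median 52152) and 58702 to 81119 CPM in VSD (median 72288), and 5 of 7 VSD libraries lay above every NC library. The part of placental, embryonic or white blood cell RNA in the cluster's level was not tested.

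**Figure D5:**
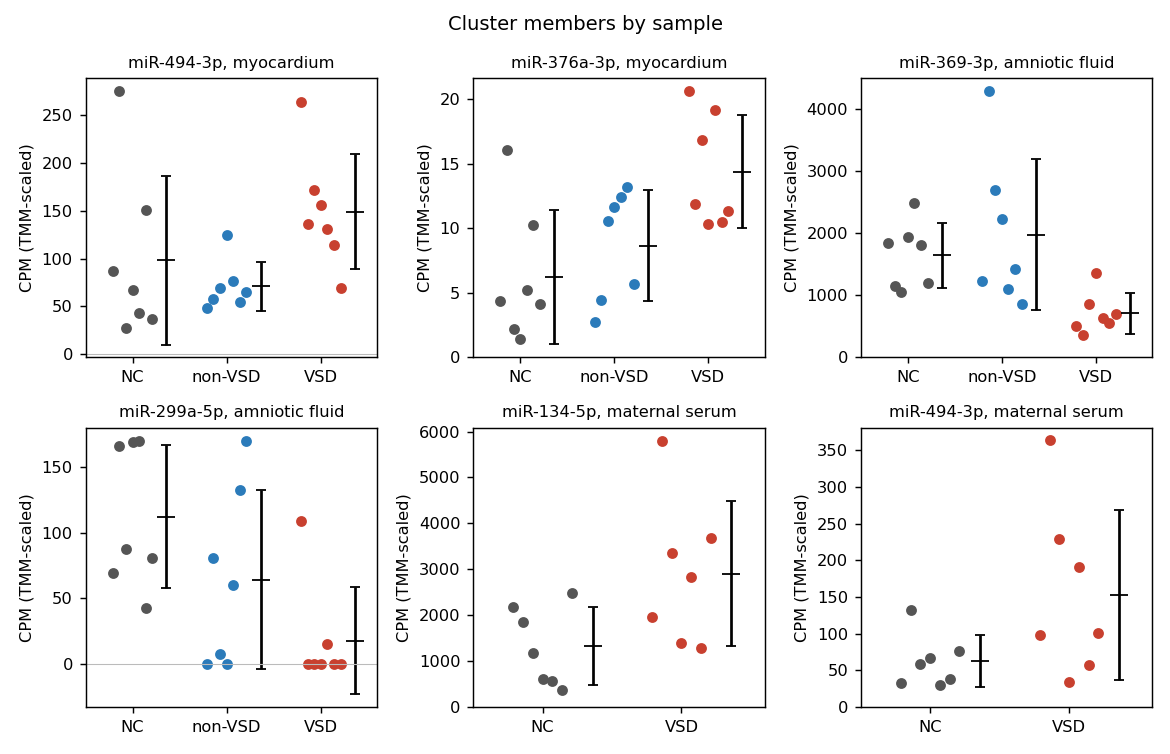
TMM-scaled CPM (y axis, linear) of single members by group; points are the 7 samples of a group and bars are mean ± SD, which can extend below 0 where most samples have no count. miR-369-3p in amniotic fluid is below every NC sample in 6 of 7 VSD samples, miR-299a-5p has 0 counts in 5 VSD libraries, and in serum 4 VSD samples of miR-134-5p lie above all NC samples.

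Whether the VSD against NC difference of a member differed between tissues was tested by permuting group labels within each tissue (two-sided, 100000 permutations). There were 38 tests, over 28 members shared by myocardium and amniotic fluid and 10 shared by myocardium and serum. VSD samples also had the DMO exposure that NC lacked. Whether samples of different tissues came from the same fetuses or dams is not given, and the test permuted the tissues independently. After Benjamini-Hochberg adjustment 2 members differed, both between myocardium and amniotic fluid. miR-369-3p changed by 0.83 in myocardium and by -1.25 in the fluid (difference of mean log2 CPM 2.08, permutation p = 0.000600, adjusted p = 0.0228). In myocardium alone miR-369-3p did not reach an unadjusted p under 0.05 in edgeR, and of edgeR, DESeq2 and limma only limma called it. miR-299a-5p changed by 0.23 and -2.53 (difference 2.76, permutation p = 0.00207, adjusted p = 0.0393). For the second the fluid value rests on the low counts given above, and in myocardium its sign depended on the measure, since edgeR gave -0.09. Between myocardium and serum 0 of 10 passed, and the lowest p there was that of miR-134-5p (difference -1.08, permutation p = 0.125, adjusted p = 0.430).

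The other microRNAs of the Dlk1-Dio3 region, such as miR-127, miR-136, miR-433 and miR-540, are given here as counts. The share of all microRNAs that met the DE-microRNA threshold is given in brackets beside each count. Of those tested in myocardium, 1 of 22 met it in VSD against NC (6.82%), 2 of 21 in non-VSD against NC (4.17%) and 0 of 22 in VSD against non-VSD (5.18%). In the same comparisons of amniotic fluid it was 2 of 14 (6.94%), 2 of 14 (12.4%) and 1 of 15 (3.3%), and in serum 2 of 6 (4.57%). Their median log2 fold changes were -0.01, -0.26 and 0.35 in myocardium, 0.0039, 0.41 and -0.10 in amniotic fluid and 0.98 in serum, beside the cluster's 0.15, -0.31, 0.44, -0.31, 0.11, -0.49 and 0.84. Comparisons within a tissue share samples, so these values are given side by side only.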

How the data were processed

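Small RNA libraries of 56 samples in 8 groups of 7 were used: myocardium from wax blocks (RecoverAll kit, TruSeq Small RNA, Illumina HiSeq), amniotic fluid supernatant (HiPure kit, QIAseq miRNA, Illumina NovaSeq) and maternal serum (miRNeasy kit, TruSeq Small RNA, Illumina HiSeq). The authors deposited raw read counts per mature microRNA in 5 tables, after base calling with bcl2fastq 2.19 and filtering with the Fastx-toolkit. The aligner, microRNA annotation, genome build and any use of molecular identifiers are not given in the sources used here. Normalised columns (70) and columns of the authors' own fold changes and p-values were not used.

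Samples were grouped by the labels. Counts were filtered with filterByExpr (minimum count 10, minimum total count 15), scaled by TMM and tested with edgeR 4.0.16 (quasi-likelihood, R 4.3.3), with p-values adjusted by Benjamini-Hochberg over all microRNAs tested. VSD against non-VSD was fitted with NC in the model, all other comparisons on the 2 groups alone. The study's threshold defined a DE-microRNA: at least 2 times or at most 0.5 times the reference level, with p (not adjusted) under 0.05. The verbs rose and fell were kept for adjusted p-values under 0.05. CPM are TMM-scaled counts per 1000000 within a tissue. Marker sums used library size only. Total counts per library, which limit precision, ranged from 78188 to 9371130. Named members were, in each comparison, those called, the lowest p in each direction, and miR-299a-5p, miR-494-3p and miR-134-3p, and by level the 5 highest in NC of each tissue. The members and lists were chosen with earlier results of these data known. The results were recomputed using limma 3.58.1 with log2(CPM + 1), DESeq2 1.42.0, library-size scaling, no filter, all groups in 1 fit, a replicate block, an adjusted threshold and each sample left out. Leaving out the libraries with least muscle microRNA or most miR-290 to miR-295 was chosen after seeing the data. The permutation test between tissues used log2 CPM with a prior count of 2. Scripts were tested on simulated data. Python 3.11.15, pandas 2.3.3, SciPy 1.17.1 and matplotlib 3.10.9 were used.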

Additional observations from a re-analysis of the deposited data

Results flagged for a closer look

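Samples far from the rest of their group were looked for in 68 groups of 7 values by Dixon's ratio at its critical value, and 4 were found. Chance gives about 1 in 20 groups. The log2 CPM of miR-299a-5p in amniotic fluid VSD replicate 1 was 6.93, with the other 6 between 3.68 and 4.82. The log2 CPM of miR-412-5p in amniotic fluid non-VSD replicate 1, with 0 counts, was 3.68, with the others between 7.51 and 10.2. The log2 CPM of miR-494-3p in amniotic fluid non-VSD replicate 4 was 6.88, with the others between 9.73 and 11.3. The cluster share of amniotic fluid non-VSD replicate 6 was 18.8%, with the others between 6.14% and 11.2%.

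Between myocardium and amniotic fluid, 2 members passed an adjusted p under 0.05 in the permutation test of the VSD against NC difference. They were miR-299a-5p (difference 2.76 on the log2 scale, adjusted p = 0.0393) and miR-369-3p (difference 2.08, adjusted p = 0.0228). The value of miR-299a-5p rests on 0 counts in 5 of 7 VSD fluid libraries and so depends on the prior count, and edgeR did not test it in the fluid without NC replicate 3, NC replicate 5 or VSD replicate 1. It passed the filter there mainly through NC, the higher group, so its p-value is a description only.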

How the results depend on the processing

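In VSD against NC myocardium 1 member was called. With DESeq2, library-size scaling, no filter or all groups in 1 fit 3 were, beside 8.10%, 9.59%, 7.87% and 7.66% of all microRNAs. Without the 3 libraries low in muscle microRNA it was also 3. With limma it was 13, beside 14.3% of all microRNAs, and at an adjusted p under 0.05 it was 0. The median moved from 0.15 to 0.69 with limma. In VSD against non-VSD myocardium 3 became 0 at an adjusted threshold, and in non-VSD against NC myocardium 0 became 1 without the libraries low in muscle microRNA. In amniotic fluid 4 members for VSD against NC became 9 of 57 without a filter (15.8%, beside 17.0% of all microRNAs) and 0 at an adjusted threshold. For non-VSD against NC, 0 became 2 of 56 without a filter (3.57%, beside 21.5% of all microRNAs) and the median 0.11 became -0.65 with limma. For VSD against non-VSD, 1 became 2 with limma (beside 5.13% of all microRNAs) or library-size scaling (beside 4.03%). It became 7 of 58 without a filter (12.1%, beside 16.8% of all) and 0 at an adjusted threshold. In serum 3 became 6 with limma (beside 5.94% of all microRNAs), 5 with library-size scaling (beside 6.39%), 0 at an adjusted threshold and 0 without the libraries highest in miR-290 to miR-295. The cause was not tested.

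Leaving out 1 sample gave 0 to 8 called members for VSD against NC, 0 to 2 for non-VSD against NC and 0 to 6 for VSD against non-VSD in myocardium, 3 to 6, 0 to 2 and 1 to 3 in amniotic fluid, 0 to 5 in serum and 12 to 28 for NC myocardium against NC serum. The shares of all microRNAs called with libraries left out are not given here, so these counts only describe how the calls moved. In VSD against NC myocardium miR-299a-5p turned to 0.55 with limma, 0.15 with library-size scaling and 0.17 without the libraries low in muscle microRNA, and ranged from -0.32 to 0.21 with 1 sample left out. miR-134-3p turned to 0.25, 0.10 and 0.20 and ranged from -0.41 to 0.13. In non-VSD against NC myocardium miR-494-3p turned to 0.16 with limma and to 0.03 without NC replicate 2 (leaving out the libraries low in muscle microRNA removes that library only, 0.034), and ranged from -0.66 to 0.034. In VSD against non-VSD amniotic fluid it ranged from -0.12 to 0.31.

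Whether the replicate numbers pair the samples was not settled. Of 7 pairs, 0 to 6 correlated above 0.1, with 6 in serum (median 0.151) and 5 in VSD against non-VSD myocardium (median 0.164). With the replicate block, called members went from 3 to 1 in VSD against non-VSD myocardium (beside 2.90% of all microRNAs) and from 3 to 5 in serum (beside 6.39%). With the same block miR-299a-5p in VSD against NC myocardium turned to 0.18. Between 0 and 3 of 7 samples correlated best with their own number.

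In amniotic fluid and serum a floor of 3 counts lay at 5.16 to 38.4 CPM, so low members could not be compared there. Litters, and read sharing among miR-409a and miR-409b, miR-299a and miR-299b or miR-300 and miR-381, were not given.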
